A study of Mus musculus with 71 samples.

Results

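Acute phase proteins that adipocytes make were followed by the mRNA signals of Saa3, Hp, Lcn2, Orm1, Cp, Serpina3n and Ptx3. The rule named 8 genes and took every probe set that the array annotation gives to exactly 1 gene, that gene being a member. Of these, 7 genes had such a probe set, out of 12393 genes on the array, and they held 13 of its 22626 probe sets. C3 was not analysed here. Cp had 7 probe sets and each of the other 6 genes had 1. A probe set entered a test if its mean signal reached the presence level, the signal above which the study's methods take a transcript as present, in at least 1 of the 12 groups of a cell type. By that filter 12 of the 13 probe sets were tested in both cell types, and the remaining Cp probe set, 1417497_at, was not.

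The samples were 71 arrays of differentiated murine adipocytes, 35 of 3T3-L1 and 36 of C3H/10T1/2, both established mouse fibroblast lines that take on fat. Cells were treated for 1, 2, 4, 7, 24 or 48 hrs with 1 μM rosiglitazone (RSG), an agonist of the nuclear receptor PPARγ, or with its vehicle DMSO, with 3 biological replicates a group (2 for 3T3-L1 with DMSO at 2 hrs). All cells, the DMSO groups included, had already met RSG and insulin while they were differentiated, and 3T3-L1 cells had also met dexamethasone and 3-isobutyl-1-methylxanthine. Before treatment all had then spent 24 hrs in a washout medium with bovine serum albumin and no RSG. RSG or DMSO was given in that same medium, which the paper describes as serum-free. Hours in DMSO and hours in that medium thus cannot be told apart. Each cell type is a single line, so that line and culture history cannot be told apart, and each array carried RNA of cells from 2 pooled wells.

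The acute phase response is a rapid change in secreted plasma proteins that follows infection or injury, driven in the liver by interleukin 6 and interleukin 1 through STAT3, NF-κB and C/EBP factors, with glucocorticoids adding to it. Fat cells make several of the same proteins, and their mRNAs in adipose tissue are known to move with inflammation and obesity. Some members bind what damaged or infected tissue releases, some bind iron or lipophilic molecules, and one blocks proteases.

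Sequences before the annotated gene starts are given for Saa3, Lcn2 and Serpina3n, because Saa3 and Lcn2 both fell with RSG in 3T3-L1 at 24 hrs, and Serpina3n fell over time in one line and rose in the other. The promoter table of RefSeq (GRCm38.p6) held 5 of the 7 members. The windows are the 250 bases upstream of the start, written 5′ to 3′ on the strand of the gene: chr7:46715677-46715926 on the minus strand for Saa3, chr2:32387740-32387989 on the minus strand for Lcn2 and chr12:104406458-104406707 on the plus strand for Serpina3n. Capitals mark matches, on either strand, to the C/EBP motif TTNNGNAA.

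Saa3: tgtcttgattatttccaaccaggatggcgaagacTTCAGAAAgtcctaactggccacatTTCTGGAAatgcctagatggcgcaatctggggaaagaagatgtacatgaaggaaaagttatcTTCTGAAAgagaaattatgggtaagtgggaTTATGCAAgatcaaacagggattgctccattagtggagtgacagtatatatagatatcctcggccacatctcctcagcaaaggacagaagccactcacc
Lcn2: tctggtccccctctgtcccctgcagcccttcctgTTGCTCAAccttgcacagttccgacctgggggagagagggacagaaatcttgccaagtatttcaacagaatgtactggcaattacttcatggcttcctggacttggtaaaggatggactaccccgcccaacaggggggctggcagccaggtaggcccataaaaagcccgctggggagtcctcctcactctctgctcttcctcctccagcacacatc
Serpina3n: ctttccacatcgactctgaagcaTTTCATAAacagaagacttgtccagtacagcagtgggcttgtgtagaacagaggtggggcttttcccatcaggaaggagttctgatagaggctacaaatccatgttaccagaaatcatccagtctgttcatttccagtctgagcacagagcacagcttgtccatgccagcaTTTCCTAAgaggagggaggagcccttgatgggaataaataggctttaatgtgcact

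The Saa3 window held 4 C/EBP matches, the last of them from -99 to -92 relative to the start. That of Lcn2 held 1 and that of Serpina3n held 2. Ptx3 and each of the annotated starts of Cp had 1 match. The same motif was found in 36.8% of all 32851 promoter windows of this length. No window of the 5 members held a match to the STAT motif TTCNNNGAA, the NF-κB consensus or the short PPAR motif AGGTCA. These motifs were present in 7.02%, 7.25% and 14.0% of all windows. No match of one motif could therefore overlap one of another. AGGTCA is only a part of a PPAR response element, and the whole element was not searched for. The matches describe letters in these windows only.

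All 9 adipocyte markers with a probe set, among them Adipoq, Fabp4 and Lpl, had median signals above the presence level in both lines. Of 9 macrophage markers, 7 had such medians in 3T3-L1 and 5 in C3H/10T1/2, among them Cd14 and Csf1r, with sums of 373 to 630.0 and 381 to 761 over all arrays, while Itgam and Ptprc reached the level on none and 1 of 35 arrays of 3T3-L1 and on none of 36 of C3H/10T1/2. Of 8 hepatocyte markers 4 and 2 had such medians, with sums of 146 to 285 and 68.7 to 137, and Ttr and Ahsg reached the level on no array of either line. C3H/10T1/2 arrays numbered replicate 3 stood apart for several members. From 1 to 7 hrs, all 8 of them, DMSO and RSG alike, lay below all 16 arrays of the other replicates for Saa3, Lcn2 and Hp. Saa3 read 116 to 369 on them against 779.7 to 1224 on the others, Lcn2 917 to 1674 against 2762 to 5193, and Hp 2337 to 5187 against 5321 to 7255. Only 51 of 16123 tested probe sets, 0.316%, were split in that way. The summed adipocyte and macrophage markers of these 8 arrays, 30293 to 37349 and 546 to 717, overlapped those of the other replicates. In 3T3-L1 the replicate 3 arrays lay above the others from 1 to 7 hrs for Lcn2 and Saa3, among 7 of 18028 probe sets. C3H/10T1/2 results are therefore given with and without replicate 3 where it matters.

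**Figure D1:**
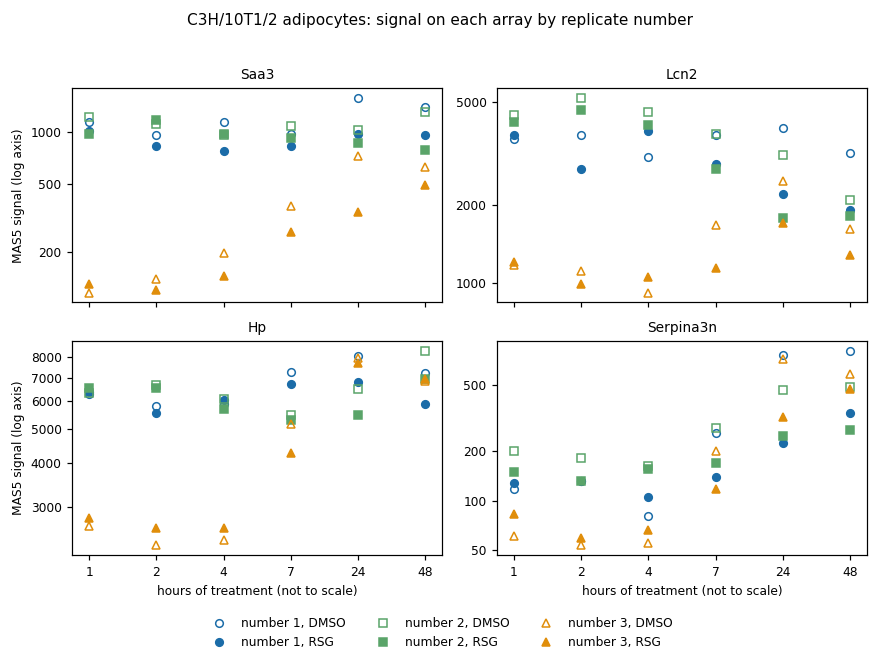
MAS5 signal (log axis) of Saa3, Lcn2, Hp and Serpina3n on every C3H/10T1/2 array against hours of treatment, with open symbols for DMSO and filled symbols for RSG and 1 symbol shape per replicate number. The replicate 3 triangles lie below all other arrays at 1 to 7 hrs for Saa3, Lcn2 and Hp, and reach the range of the others for Hp at 24 and 48 hrs.

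With RSG, several members fell in 3T3-L1 adipocytes after a day, some passed in C3H/10T1/2, and limma over all arrays of a line called none in the first 7 hrs. At 24 hrs in 3T3-L1, 5 of 12 member probe sets, of 5 genes (Hp, Lcn2, Orm1, Saa3 and Cp), were lower with RSG and none was higher, where 6.97% of all 18028 tested probe sets were called lower and 4.79% higher (limma, Benjamini-Hochberg adjusted p under 0.05). At 48 hrs 3 were lower (Hp, Orm1 and Cp) and 1 was higher (Serpina3n), against 8.09% lower and 6.2% higher over all. For C3H/10T1/2, 2 of 12 were lower at 24 hrs (Orm1 and Cp), where 4.07% of 16123 were lower and 3.65% higher, and 1 at 48 hrs (Orm1), where 2.62% were lower and 2.79% higher. Under the replicate block, a term for the replicate number, 6 were lower at 24 hrs (Serpina3n and 3 more Cp probe sets) and 3 at 48 hrs (with 2 of Cp), where 7.27% and 4.87% of all probe sets were called lower. In 3T3-L1 the block added Ptx3 (lower) at 24 hrs, and Saa3 (lower) and Lcn2 (higher) at 48 hrs. No share over all probe sets under the block is set beside the 3T3-L1 calls, and nothing particular to the members is read from them. The difference between the lines in these counts was not tested. The count of 5 rests in part on single arrays: it was 3 without RSG replicate 1 or without DMSO replicate 3 of the 24 hr groups.

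All 12 log2 fold changes lay below 0 at 24 hrs in both lines and at 48 hrs in C3H/10T1/2, with medians of -0.76, -0.71 and -0.52, against medians of -0.01, -0.07 and -0.01 over all tested probe sets. Of all tested probe sets 51.2%, 59.1% and 51.7% lay below 0 in these comparisons. At 48 hrs in 3T3-L1, 8 of 12 lay below 0, against 53.1% over all, with a median of -0.38 against -0.03. Since 6 of the 12 were probe sets of Cp, these counts and medians weigh that gene most. At 1, 2, 4 and 7 hrs no member was called by limma, where 0.0666%, 0.172%, 0.716% and 2.04% of all probe sets were called in 3T3-L1. The shares for C3H/10T1/2 were 0.0434%, 0.229%, 0.763% and 2.85%. At an unadjusted p under 0.05, Orm1 passed at 4 hrs in 3T3-L1, where 656 of all probe sets passed higher and 600 lower. No member passed at the other early times. None was called at any of these times by the methods' test, which is an unadjusted variance analysis of log signals with a fold minimum. A fit of only the groups compared, with the replicate number as a block, called 3 at 7 hrs in C3H/10T1/2, all lower: Serpina3n (adjusted p = 0.011), Lcn2 (0.022) and Cp on 1417494_a_at (0.043), where 1.66% of all probe sets were called lower. That fit called 8 member probe sets of 5 genes lower at 24 hrs and 6 of 5 genes at 48 hrs, against 4.24% and 3.89% over all. It was chosen after seeing the data, here and wherever it is given below. The p-values measure the spread between replicates that the labels call biological and that came from 3 batches of cells. In RNA of whole cultures, fewer cells of a type and less mRNA per cell cannot be told apart.

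**Figure D2:**
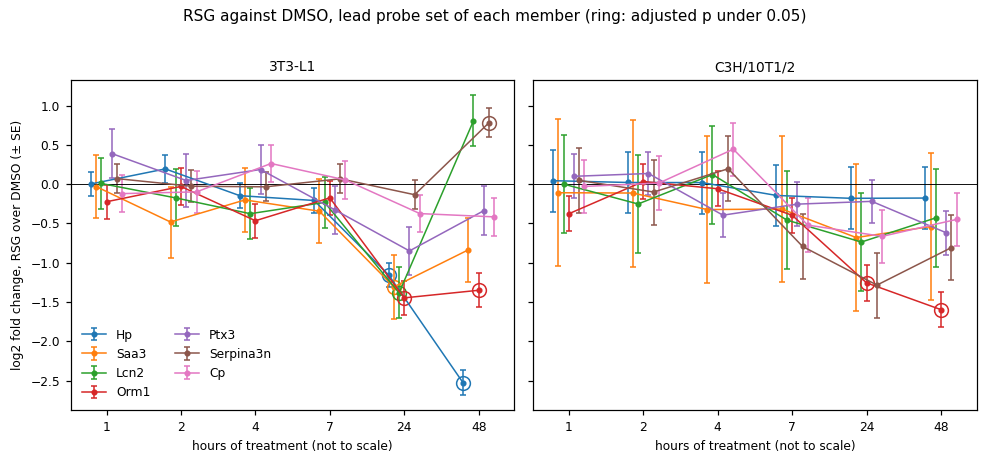
Log2 fold change of RSG over DMSO (points, with bars of ± 1 SE) of the lead probe set of each member against hours of treatment, in 3T3-L1 on the left and C3H/10T1/2 on the right, with a ring where the adjusted p was under 0.05. No point up to 7 hrs has a ring, though that of Serpina3n in C3H/10T1/2 lies at -0.79 at 7 hrs. The lowest point is that of Hp at 48 hrs in 3T3-L1, at -2.53.

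Saa3 encodes serum amyloid A3, a lipoprotein-associated protein that is made mainly outside the liver. Its signal fell in 3T3-L1 with RSG at 24 hrs. The DMSO arrays read 255, 217 and 305 and the RSG arrays 82.1, 87.8 and 155, so that all RSG arrays lay below all DMSO arrays. The log2 fold change was -1.31 ± 0.40 (SE), or 2.47-fold lower, with an adjusted p of 0.030 (limma). That call was lost without RSG replicate 1 (adjusted p = 0.14), RSG replicate 2 (0.10), DMSO replicate 1 (0.065) or DMSO replicate 3 (0.12). At 48 hrs the arrays again did not overlap, with 130.2, 84.1 and 109.6 in DMSO and 81.2, 51.9 and 50.1 in RSG, and the fold change of -0.84 ± 0.40 (SE) did not pass (adjusted p = 0.19). The 48 hr change passed under the replicate block (adjusted p = 0.021), and with the compared groups alone and that block (0.046).

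Saa3 signals of C3H/10T1/2 at 24 hrs were 1577, 1034 and 727 with DMSO and 977, 867 and 341 with RSG in replicate order, and at 48 hrs 1401, 1301 and 621 and 966, 781 and 489. Within each replicate number the RSG array was the lower one at both times, 6 of 6 pairs, as it was in 3T3-L1. The groups overlapped, with replicate 3 the lowest array of each. The fold changes of -0.68 ± 0.93 (SE) and -0.54 ± 0.93 (SE) did not pass (adjusted p = 0.76 and 0.87), with 95% confidence intervals of -2.59 to 1.23 and -2.45 to 1.37. Fitted with the compared groups alone and the replicate block, both passed (adjusted p = 0.037 and 0.018). That fit was chosen after seeing the data, and the replicate block over all arrays of the line called neither. Without replicate 3 the fold changes were -0.47 (adjusted p = 0.20) and -0.64 (adjusted p = 0.079). The replicate 3 arrays with DMSO read 116 at 1 hr and 621 at 48 hrs, whereas the other replicates read 1138 and 1224 at 1 hr and 1401 and 1301 at 48 hrs.

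Ptx3 encodes pentraxin 3, a soluble pattern recognition protein of the innate immune system. With RSG its signal at 24 hrs in 3T3-L1 was 95.6, 182 and 168 against 201, 327 and 259 with DMSO. All RSG arrays were below all DMSO arrays, and the fold change of -0.85 ± 0.31 (SE) did not pass (adjusted p = 0.071). That change passed under the replicate block (adjusted p = 0.022), and with the compared groups alone and the block (0.0043). At 48 hrs the groups overlapped, at 215, 265 and 316 against 351, 274 and 379. The C3H/10T1/2 arrays did not overlap at either time, with 887, 901 and 924 against 1013, 1192 and 963 at 24 hrs and 749, 1057 and 709 against 1403, 1215 and 1189 at 48 hrs. Neither difference passed, at -0.22 ± 0.28 (SE) and -0.62 ± 0.28 (SE) (adjusted p = 0.74 and 0.24). The 48 hr one did when the compared groups alone were fitted with the replicate block (adjusted p = 0.023). The replicate block over all arrays of the line called neither.

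Over time in DMSO, Ptx3 rose in C3H/10T1/2. From 747, 751 and 265 at 1 hr it reached the 24 and 48 hr values just given, 1.98-fold and 2.39-fold higher (log2 0.99 ± 0.28 (SE) and 1.26 ± 0.28 (SE), adjusted p = 0.016 and 0.0023, limma). Replicate 3 was low at 1 hr, and without that single array the changes were 0.49 (adjusted p = 0.23) and 0.76 (0.051). The 24 hr call was also lost without DMSO replicate 2 at 24 hrs (adjusted p = 0.075). With all replicate 3 arrays set aside the changes were 0.55 (adjusted p = 0.065) and 0.80 (adjusted p = 0.0080). Under the replicate block, the 7 hr arrays, 904, 927 and 857, also passed, at 0.76 (adjusted p = 0.024, against 0.082 without it). In 3T3-L1 the DMSO means were 224 ± 95.1 (SD, n = 3) at 1 hr, 97.3 ± 38.8 (SD, n = 3) at 4 hrs and 335 ± 54.6 (SD, n = 3) at 48 hrs, and no time differed from 1 hr by limma without the block. With the block, the 4 hr fall passed (adjusted p = 0.037).

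Hp encodes haptoglobin, which binds free hemoglobin, and of the called changes of members with RSG, its change at 48 hrs in 3T3-L1 was the largest. In 3T3-L1 at 24 hrs the DMSO arrays read 6434, 5939 and 5560.2 and the RSG arrays 3448, 2574 and 2172. At 48 hrs they read 4701, 3716 and 3941 and 912, 615 and 643. The groups did not overlap at either time. The mean of the DMSO arrays at 48 hrs was 4119 ± 516 (SD, n = 3), while the RSG arrays averaged 723 ± 164 (SD, n = 3). The log2 fold changes were -1.15 ± 0.16 (SE) and -2.53 ± 0.16 (SE), or 2.23-fold and 5.76-fold lower (adjusted p = 4.5e-06 and 8.3e-13, limma). DMSO arrays also fell with time, from 7143, 8646 and 5949.8 at 1 hr to the 48 hr values, -0.81 ± 0.16 (SE) on the log2 scale (adjusted p = 0.0027).

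Hp was not called with RSG in C3H/10T1/2. The RSG arrays read 6826, 5491 and 7696 at 24 hrs and 5912, 6958 and 6954 at 48 hrs, against 8067, 6514 and 7979 and 7217, 8348 and 6853 with DMSO. The groups overlapped at both times, with fold changes of -0.18 ± 0.39 (SE) and -0.18 ± 0.39 (SE) that did not pass (adjusted p = 0.87 and 0.91, 95% confidence intervals -0.98 to 0.62 and -0.98 to 0.63). Without replicate 3 they were -0.24 (adjusted p = 0.51) and -0.28 (adjusted p = 0.47). The effect of RSG in 3T3-L1 minus that in C3H/10T1/2 was -2.35 ± 0.45 (SE) at 48 hrs (adjusted p = 0.0013, limma over all 71 arrays) and -2.25 (adjusted p = 5.0e-08) without replicate 3 of C3H/10T1/2. At 24 hrs it was -0.97 ± 0.45 (SE) and did not pass (adjusted p = 0.53).

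Lcn2 encodes lipocalin 2, which binds bacterial iron carriers. In 3T3-L1 it fell with RSG at 24 hrs and not at 48 hrs. At 24 hrs the DMSO arrays read 109, 93.5 and 98.5 and the RSG arrays 50.5, 30.0 and 37.5. At 48 hrs the order turned, with 78.3, 40.4 and 52.0 in DMSO and 103, 72.3 and 118 in RSG. All RSG arrays were below all DMSO arrays at 24 hrs, 2.61-fold on average (log2 -1.38 ± 0.32 (SE), adjusted p = 0.0038, limma). The groups overlapped at 48 hrs, where the difference was 0.81 ± 0.32 (SE) and did not pass (adjusted p = 0.099). The RSG array was the higher of each same-numbered pair at 48 hrs, and under the replicate block the difference passed (adjusted p = 0.011). The DMSO signal had meanwhile fallen from 136, 127 and 245 at 1 hr, 2.95-fold by 48 hrs (log2 -1.56 ± 0.32 (SE), adjusted p = 0.0050). That call was lost without DMSO replicate 3 at 1 hr (-1.26, adjusted p = 0.055).

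Lcn2 signals in C3H/10T1/2 with RSG were 2209, 1779.6 and 1700.4 at 24 hrs and 1914, 1809 and 1285 at 48 hrs. Those with DMSO were 3974, 3125 and 2487 and 3179, 2101 and 1624. Every RSG array was below its same-numbered DMSO array, 6 of 6 pairs, and the groups were apart at 24 hrs and overlapped at 48 hrs. The fold changes of -0.74 ± 0.62 (SE) and -0.43 ± 0.62 (SE) did not pass (adjusted p = 0.57 and 0.83). The 24 hr change passed when only the compared groups were fitted (adjusted p = 0.043, or 0.0054 with the block added). The replicate block over all arrays of the line called neither change. Without replicate 3 the fold changes were -0.83 (adjusted p = 0.058) and -0.47 (adjusted p = 0.38).

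Cp encodes ceruloplasmin, a copper-carrying ferroxidase, and its probe sets differed among themselves. The lead probe set, 1417494_a_at, with the highest mean signal of the 7, was not called by limma over all arrays of either line. In 3T3-L1 it read 461, 522 and 428 with DMSO and 304, 378 and 412 with RSG at 24 hrs (-0.37 ± 0.24 (SE), adjusted p = 0.38), and in C3H/10T1/2 525, 395 and 771 and 276, 279.6 and 521 (-0.66 ± 0.34 (SE), adjusted p = 0.28). The fit of the compared groups with the replicate block called it in C3H/10T1/2 at 7 hrs (adjusted p = 0.043) and 24 hrs (0.020). The RSG array was the lower of each same-numbered pair at 24 and 48 hrs in both lines. The RSG and DMSO groups were apart in 3T3-L1 at 24 hrs and overlapped in 3T3-L1 at 48 hrs and in C3H/10T1/2 at both times.

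Of the other Cp probe sets, 1448734_at was lower with RSG at 24 hrs in 3T3-L1, with 80.5, 158 and 169 in DMSO and 60.6, 83.3 and 43.5 in RSG. The groups overlapped, since 1 RSG array lay above 1 DMSO array, and the change of -1.10 ± 0.36 (SE) (adjusted p = 0.042, limma) was lost without RSG replicate 1 (adjusted p = 0.11), RSG replicate 3 (0.20), DMSO replicate 2 (0.17) or DMSO replicate 3 (0.20). At 48 hrs 1455393_at was lower instead, 60, 58.1 and 79.2 against 208, 114 and 138, with no overlap (-1.19 ± 0.23 (SE), adjusted p = 3.5e-04), while 1448734_at differed by -0.0044 ± 0.36 (SE). The probe sets of 1 gene thus gave different calls at the same time.

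The Cp probe set called in C3H/10T1/2 was 1417495_x_at, whose suffix marks probes shared with other sequences. At 24 hrs it read 233, 281 and 336 with DMSO and 103, 118 and 198 with RSG, without overlap (-1.07 ± 0.24 (SE), adjusted p = 0.0040, limma). With the replicate number as a block, 3 more Cp probe sets passed there, 1448734_at (-1.11, adjusted p = 0.0070), 1448735_at (-0.74, 0.036) and 1455393_at (-0.64, 0.047). At 48 hrs the block called 1417495_x_at (-0.58, adjusted p = 0.043) and 1448734_at (-0.88, 0.043), where the fit without it gave 0.19 and 0.20. All 6 tested Cp probe sets had a log2 fold change below 0 at 24 hrs in both lines.

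**Figure D3:**
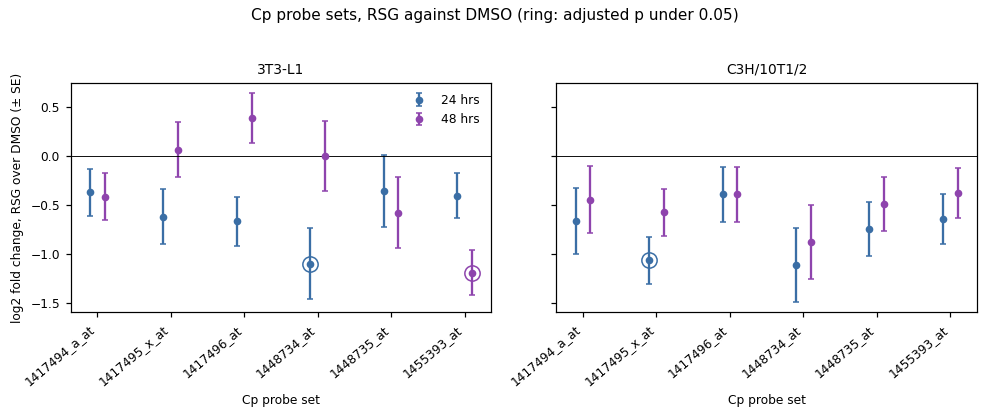
Log2 fold change of RSG over DMSO (points, with bars of ± 1 SE) of the 6 tested Cp probe sets at 24 and 48 hrs in 3T3-L1 (left) and C3H/10T1/2 (right), with a ring where the adjusted p was under 0.05. At 48 hrs in 3T3-L1 the probe sets spread from -1.19 to 0.38, while in C3H/10T1/2 all lie below 0 at both times.

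Orm1 encodes orosomucoid 1, or alpha-1-acid glycoprotein, a carrier of lipophilic molecules, and it was the member that fell with RSG at both late times in both lines. In 3T3-L1 the DMSO arrays read 582, 319 and 373 at 24 hrs and 619, 479 and 464 at 48 hrs, and the RSG arrays 188, 126 and 144 and 261, 162 and 196. Those of C3H/10T1/2 read 365, 242 and 174 and 461, 373 and 333 with DMSO, and 119.5, 119 and 79.6 and 111, 172 and 109 with RSG. No RSG array reached a DMSO array of its time and line. Signals were 2.73-fold and 2.55-fold lower in 3T3-L1 (log2 -1.45 ± 0.22 (SE) and -1.35 ± 0.22 (SE), adjusted p = 1.7e-05 and 3.4e-05, limma). They were 2.39-fold and 3.02-fold lower in C3H/10T1/2 (log2 -1.26 ± 0.23 (SE) and -1.60 ± 0.23 (SE), adjusted p = 4.6e-04 and 1.6e-05).

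The difference in Orm1 between the lines was -0.19 ± 0.32 (SE) at 24 hrs and 0.25 ± 0.32 (SE) at 48 hrs and did not pass (adjusted p = 0.93 and 0.91, 95% confidence intervals -0.83 to 0.45 and -0.40 to 0.89). The DMSO signal of C3H/10T1/2 rose over the same hours, from 152, 141 and 102 at 1 hr, 1.91-fold by 24 hrs and 2.97-fold by 48 hrs (log2 0.94 ± 0.23 (SE) and 1.57 ± 0.23 (SE), adjusted p = 0.0045 and 9.0e-06). The RSG arrays read 116, 117 and 74.4 at 1 hr, in the range of their values at 24 and 48 hrs apart from 1 array. The 24 hr rise was lost without DMSO replicate 1 at 24 hrs (0.66, adjusted p = 0.068). In 3T3-L1 the DMSO signal at 48 hrs lay above that at 1 hr on all arrays, a change of 0.71 ± 0.22 (SE) that did not pass (adjusted p = 0.085). Under the replicate block that rise passed (adjusted p = 0.0087). Orm1 has close paralogs, and signal that it may share with them cannot be told apart here.

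Serpina3n encodes an inhibitor of serine proteases, and its course in DMSO ran in opposite directions in the lines. The C3H/10T1/2 DMSO arrays rose from 118, 200.4 and 61.4 at 1 hr to 761, 469.3 and 727 at 24 hrs and 809, 488 and 585 at 48 hrs. All late arrays were above all early ones, 5.64-fold and 5.43-fold on average (log2 2.50 ± 0.41 (SE) and 2.44 ± 0.41 (SE), adjusted p = 7.1e-05 and 1.0e-04, limma). Without replicate 3, which was low at 1 hr, the rises were 1.96 (adjusted p = 8.2e-04) and 2.03 (adjusted p = 5.8e-04). In 3T3-L1 the DMSO arrays fell instead, from 341, 353 and 431 at 1 hr to 209.8, 186 and 211 at 24 hrs and 88.6, 78.7 and 77.4 at 48 hrs. The late arrays were 1.85-fold and 4.58-fold lower (log2 -0.89 ± 0.18 (SE) and -2.20 ± 0.18 (SE), adjusted p = 0.0092 and 1.9e-09). The 24 hr fall was lost without DMSO replicate 3 at 1 hr (adjusted p = 0.058) or replicate 2 at 24 hrs (0.059). The difference between the lines in these courses was not tested.

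With RSG, Serpina3n in 3T3-L1 was 155, 172 and 234 at 24 hrs, overlapping DMSO (-0.13 ± 0.18 (SE), adjusted p = 0.73). At 48 hrs it was 149, 158 and 117, above all DMSO arrays, 1.72-fold on average (0.78 ± 0.18 (SE), adjusted p = 0.0028, limma). The RSG arrays at 48 hrs were also below those at 1 hr, 380.4, 311 and 509, so that both treatments ended lower than they began. The RSG arrays of C3H/10T1/2 read 225, 248 and 322 at 24 hrs and 338, 270.1 and 472 at 48 hrs, below all DMSO arrays at each time. The 24 hr difference of -1.28 ± 0.41 (SE) passed under the replicate block (adjusted p = 0.014) and not without it (0.052), and the fit of only the compared groups called it as well (adjusted p = 0.010). Without replicate 3 it was -1.34 (adjusted p = 0.024). The 48 hr difference of -0.81 ± 0.41 (SE) did not pass (adjusted p = 0.34), but did with the compared groups and the block (0.014). The replicate block over all arrays of the line did not call it. The RSG effect in 3T3-L1 minus that in C3H/10T1/2 at 48 hrs was 1.59 ± 0.47 (SE), short of the threshold (adjusted p = 0.11), and 1.84 (adjusted p = 0.0042) without replicate 3 of C3H/10T1/2.

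**Figure D4:**
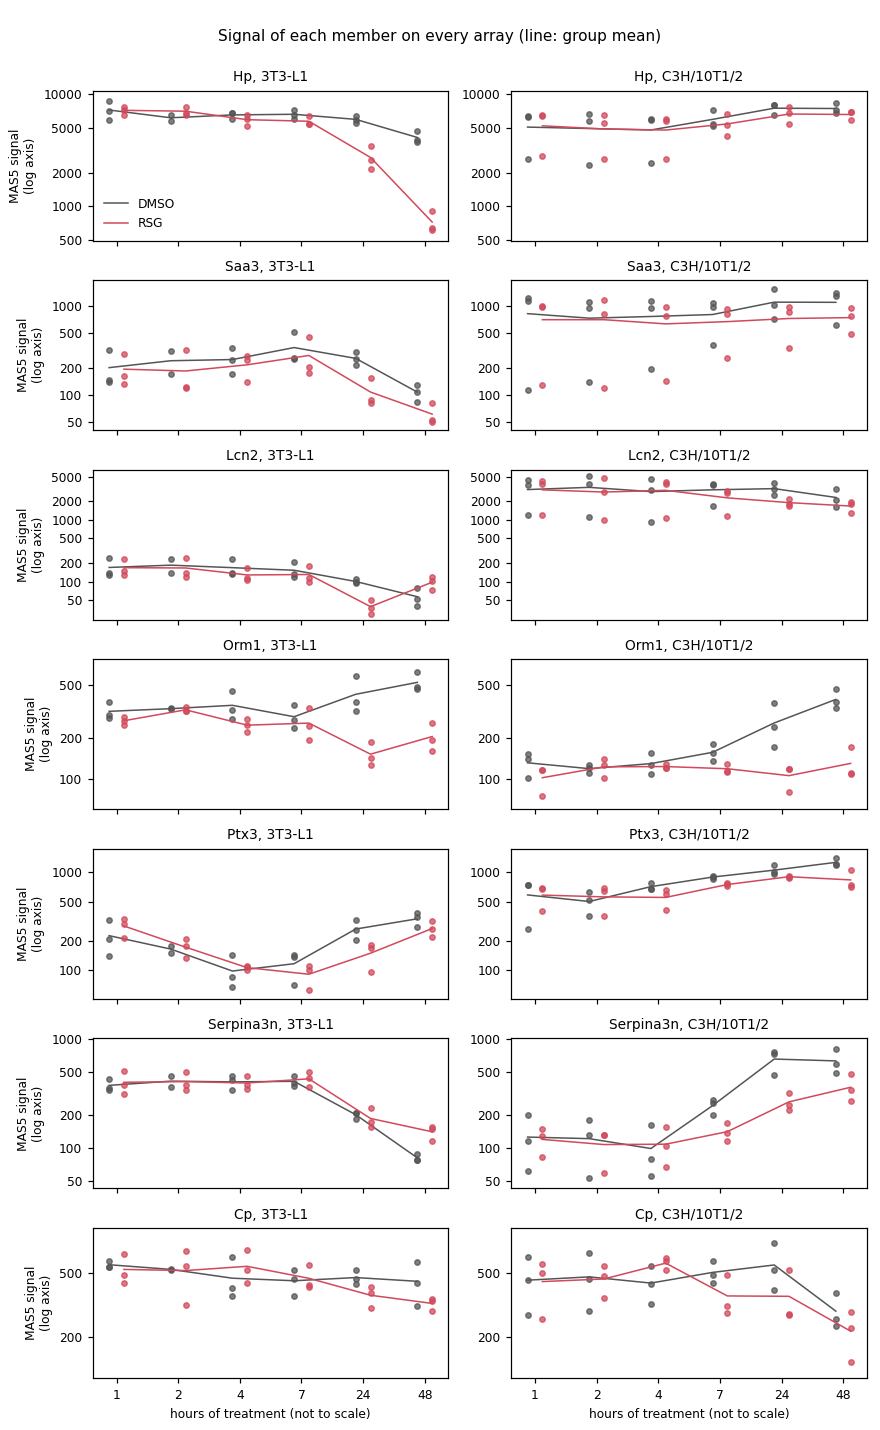
MAS5 signal (log axis) of the lead probe set of each member on every array (points) with the group mean (line) against hours of treatment, in DMSO (grey) and RSG (red), for 3T3-L1 on the left and C3H/10T1/2 on the right. At 24 and 48 hrs the RSG and DMSO lines part, widely for Hp in 3T3-L1 and for Orm1 in both lines, and the DMSO signal of Serpina3n falls in 3T3-L1 and rises in C3H/10T1/2.

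Across the DMSO course, 1 of 12 member probe sets was called at 24 hrs in 3T3-L1 (Serpina3n, lower) and 3 at 48 hrs (Hp, Lcn2 and Serpina3n, lower), where 0.949% and 1.96% of all tested probe sets were called in either direction. For C3H/10T1/2, 3 were called at 24 hrs and the same 3 genes at 48 hrs (Orm1, Ptx3 and Serpina3n, all higher), where 11.8% and 10.2% were called over all. At 2, 4 and 7 hrs limma without the replicate block called no member. The shares it called over all were then 0.0166%, 0.0721% and 0.0832% for 3T3-L1 and 0.8%, 5.5% and 10.1% for C3H/10T1/2. With the block, limma called Ptx3 at 4 hrs in 3T3-L1 (adjusted p = 0.037). At 7 hrs in C3H/10T1/2 it called Ptx3 (0.024) and Serpina3n (0.032). The methods' test without adjustment called Ptx3 at 4 and 7 hrs in 3T3-L1 and both Ptx3 and Serpina3n at 7 hrs in C3H/10T1/2. At an unadjusted p under 0.05 by limma, Ptx3 passed at 4 and 7 hrs in 3T3-L1. Of all 18028 probe sets, 531 and 452 passed higher there and 549 and 465 lower. Ptx3 and Serpina3n passed at 7 hrs in C3H/10T1/2, where 2231 of 16123 passed higher and 1451 lower. Nothing particular to the members is read from these early calls and passes. All of these comparisons share the 3 DMSO arrays at 1 hr of their line, and the DMSO arrays at 24 and 48 hrs also served as controls for RSG. No array of untreated cells at 0 hr was analysed here.

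Of the differences in RSG effect between the lines, Hp at 48 hrs was the only member called by limma without the block, among 0.848% of 18274 probe sets. No member was called at 24 hrs, where 0.257% were, at 7 hrs, where 0.0164% were, or at 1, 2 and 4 hrs, where 0 and thus 0% were called. At an unadjusted p under 0.05 there were 2 members at 24 hrs (Hp and Serpina3n) and none from 1 to 7 hrs. Over all probe sets, 807 passed above 0 and 725 below 0 at 24 hrs. At 48 hrs 2 member probe sets passed above 0 and 2 below, where 820 and 839 did over all. Serpina3n at 48 hrs was called under the replicate block (adjusted p = 0.021) and with only the groups compared (0.045). A fit of the compared groups alone with the replicate block called Hp at 24 hrs (adjusted p = 0.031) and Serpina3n at 48 hrs (0.030).

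Levels at 1 hr in DMSO differed between the lines for several members, in both directions. Lcn2 read 136, 127 and 245 in 3T3-L1, whereas C3H/10T1/2 arrays read 3620.4, 4462 and 1176, 16.5-fold lower in 3T3-L1 (log2 -4.04 ± 0.52 (SE), adjusted p = 6.2e-09, limma). Without replicate 3 of C3H/10T1/2 the difference was -4.64 (adjusted p = 3.1e-15). Ptx3 was also lower in 3T3-L1, 208, 138 and 327 against 747, 751 and 265 (-1.33 ± 0.30 (SE), adjusted p = 3.3e-04), with overlap through the low replicate 3 of C3H/10T1/2. Serpina3n and Orm1 were higher in 3T3-L1 on every array, by 1.72 ± 0.33 (SE) and 1.28 ± 0.23 (SE) (adjusted p = 3.2e-05 and 6.9e-06).

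Saa3 was 149, 142 and 319.9 in 3T3-L1 against 1138, 1224 and 116 for C3H/10T1/2, a difference of -1.52 ± 0.76 (SE) that did not pass (adjusted p = 0.096). It was -2.64 (adjusted p = 6.6e-07) without replicate 3 of C3H/10T1/2, which alone read below the 3T3-L1 arrays. Hp did not pass, at 0.60 ± 0.31 (SE) (adjusted p = 0.12). The Cp probe set 1448734_at was lower in 3T3-L1, 78.1, 77.7 and 157 against 221, 233 and 150.4 (-1.01 ± 0.38 (SE), adjusted p = 0.027), a call lost without replicate 1 or 2 of C3H/10T1/2 (adjusted p = 0.080 and 0.10) or of 3T3-L1 (0.12 and 0.12), and the other Cp probe sets did not pass. In all 5 of 12 were called, where 44.8% of 18274 probe sets were. The median of all probe sets in this comparison was itself 0.34, and the calls over all split into 5753 higher and 2439 lower in 3T3-L1. After quantile normalization that median was 0.06 and the split 3304 to 3158, and the same 5 member probe sets were called in the same directions.

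The 4 lists of related genes are described by their counts, to be read against the shares of all tested probe sets called with RSG at 24 and 48 hrs. Shares called lower were 6.97% and 8.09% for 3T3-L1 but 4.07% and 2.62% for C3H/10T1/2, while 4.79% and 6.2%, then 3.65% and 2.79%, were called higher. Nothing particular to a list is read from them. Of other acute phase proteins most did not pass the test. Of 20 tested probe sets in 3T3-L1, 2 were lower and none higher with RSG at 24 hrs, and 4 lower and 1 higher at 48 hrs, with medians of 0.11 and 0.15 on the log2 scale. Of 14 in C3H/10T1/2, 1 was lower at each time, with medians of -0.36 and -0.07, and under the replicate block 3 and 2 were lower. Itih4, a heavy chain of the inter-alpha-trypsin inhibitor family, fell in all 4 comparisons. It went from 543 ± 66.0 in DMSO to 299.6 ± 18.5 in RSG (SD, n = 3), log2 fold change -0.85 ± 0.18 (SE) and adjusted p = 0.0017 in 3T3-L1 at 24 hrs, and from 305 ± 52.4 in DMSO to 124 ± 25.4 in RSG (SD, n = 3), log2 fold change -1.31 ± 0.27 (SE) and adjusted p = 0.0022 in C3H/10T1/2 at 24 hrs. At 48 hrs its changes were -1.23 ± 0.18 (SE, adjusted p = 1.3e-05) and -1.11 ± 0.27 (SE, adjusted p = 0.010). Orm3, a paralog of Orm1, changed in 3T3-L1 by -1.89 ± 0.48 (SE, adjusted p = 0.0070) and -2.06 ± 0.48 (SE, adjusted p = 0.0027), to RSG means of 16.5 and 19.1, both under the presence level, so that the sizes are uncertain.

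Agt, the precursor of angiotensin, fell at 48 hrs in 3T3-L1 from 655 ± 21.8 in DMSO to 274 ± 66.0 in RSG (SD, n = 3), log2 fold change -1.29 ± 0.17 (SE) and adjusted p = 1.6e-06. Tnfaip6, a hyaluronan-binding protein, also fell there, with a log2 change of -0.93 ± 0.30 (SE, adjusted p = 0.036), to an RSG mean of 20.8, near the presence level. Steap4, a metalloreductase, rose there by 2.08 ± 0.71 (SE, adjusted p = 0.046), from a mean of 11.5 in DMSO, under the presence level. Complement components and regulators held 1 call, C1ra of the C1 complex, lower at 48 hrs in 3T3-L1 (-0.63 ± 0.21 (SE, adjusted p = 0.036)), among 15 tested there, and none of 14 at either time in C3H/10T1/2 by limma, where with the replicate block 3 were lower and 1 higher at 24 hrs and 2 lower at 48 hrs.

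Receptors and cytokines that drive the response held calls of lower signal. For 3T3-L1, 3 of 29 probe sets were lower at each late time and none higher, and in C3H/10T1/2 5 of 28 at 24 hrs and 1 at 48 hrs, or 8 and 3 under the replicate block. Osmr, the oncostatin M receptor, fell at 24 hrs in both lines (-0.86 ± 0.18 (SE, adjusted p = 0.0015) in 3T3-L1 and -0.55 ± 0.15 (SE, adjusted p = 0.023) in C3H/10T1/2). Il1r1, the interleukin 1 receptor, fell in 3T3-L1 at 24 hrs (-1.60 ± 0.51 (SE, adjusted p = 0.036)) and Il6ra, the ligand-binding chain of the interleukin 6 receptor, at 48 hrs (-1.73 ± 0.36 (SE, adjusted p = 0.0010)), to a mean of 16.5 that was under the presence level. Lifr, the receptor of leukemia inhibitory factor, fell in 3T3-L1 at 24 hrs (-1.10 ± 0.34 (SE, adjusted p = 0.030)) and in C3H/10T1/2 at 48 hrs (-1.18 ± 0.32 (SE, adjusted p = 0.020)). At 24 hrs in C3H/10T1/2 Il6st, the shared signaling chain of that receptor family, fell as well (-0.71 ± 0.23 (SE, adjusted p = 0.0496)), as did Tlr4 (-0.76 ± 0.24 (SE, adjusted p = 0.047)). Il1rap and Tnfrsf1b, a receptor chain of interleukin 1 and a receptor of tumor necrosis factor, fell in 3T3-L1 at 48 hrs (-0.89 ± 0.24 (SE, adjusted p = 0.0098) and -0.58 ± 0.17 (SE, adjusted p = 0.017)).

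Among 43 probe sets of signal carriers and transcription factors tested in 3T3-L1, 1 was higher and 4 lower at 24 hrs and 3 higher and 4 lower at 48 hrs. In C3H/10T1/2, of 42, 3 were lower at 24 hrs (7 under the replicate block) and none was called at 48 hrs, where the block gave 1 higher and 2 lower. Cebpb, a factor named for driving acute phase genes, rose in 3T3-L1 at 24 hrs on 1418901_at (0.78 ± 0.18 (SE, adjusted p = 0.0039)) and at 48 hrs on 1427844_a_at (1.17 ± 0.22 (SE, adjusted p = 2.3e-04)). Nr3c1, the glucocorticoid receptor, rose there at 48 hrs (0.76 ± 0.21 (SE, adjusted p = 0.011)). Socs3, a feedback inhibitor of STAT3 signaling, fell in 3T3-L1 at 24 hrs on 1456212_x_at (-1.37 ± 0.39 (SE, adjusted p = 0.016)), to an RSG mean of 21.9, near the presence level. At 48 hrs it fell on 1416576_at (-1.45 ± 0.40 (SE, adjusted p = 0.012)), there to a mean of 15.1, under the presence level. Nfkbia, the inhibitor of NF-κB, fell in 3T3-L1 at 48 hrs (-0.65 ± 0.18 (SE, adjusted p = 0.014)). The kinases Ikbkb (-0.60 ± 0.16 (SE, adjusted p = 0.010)) and Jak2 (-0.58 ± 0.18 (SE, adjusted p = 0.034)) fell in 3T3-L1 at 24 hrs, and Nfkbie, another NF-κB inhibitor, at 48 hrs (-0.81 ± 0.22 (SE, adjusted p = 0.013)). At 24 hrs in C3H/10T1/2, Stat3 (-0.50 ± 0.16 (SE, adjusted p = 0.046)), Nfkbia (-0.50 ± 0.13 (SE, adjusted p = 0.011)) and Relb, an NF-κB subunit (-0.71 ± 0.22 (SE, adjusted p = 0.045)), fell.

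Markers of preadipocytes and fibroblasts were called lower alongside the members. With RSG 6 of 17 probe sets were lower at 24 hrs in each line, and 10 in 3T3-L1 and 5 in C3H/10T1/2 at 48 hrs, with none higher, and the replicate block called 10 at 24 hrs in C3H/10T1/2. The summed signal of their 9 genes was 14561 to 18980.0 with RSG and 19499 to 23585 with DMSO at 24 hrs in 3T3-L1, and 16788 to 18484 and 23857 to 24361 at 48 hrs. In C3H/10T1/2 it was 12259 to 13938 and 16499.5 to 20189, then 12206 to 13974 and 16189 to 16509, so that the RSG arrays were the lower ones throughout, without overlap. Their part in the changes of the members was not tested. Of 15 adipocyte marker probe sets 5 were higher and 1 lower at 24 hrs in 3T3-L1, and 3 and 1 at 48 hrs, against none at 24 hrs and 1 lower at 48 hrs in C3H/10T1/2, where the replicate block gave 3 higher at 24 hrs. Their sums at 24 hrs in 3T3-L1 were 42552 to 54797 with RSG and 35704 to 43218 with DMSO. The sums at 48 hrs were 36944 to 50425 and 35947 to 44672, and the groups overlapped at both times. Among hepatocyte markers 1 of 7 was higher at 48 hrs in 3T3-L1. No macrophage marker was called in either line at 24 or 48 hrs by limma, with 1 higher and 1 lower under the replicate block at 48 hrs in 3T3-L1.

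The genes outside the set whose mean log2 signals ran most like a member's, by Pearson's r over the 24 groups with each line centred on its own mean, are given as a description, since the groups share lines and arrays. Lcn2 had the closest, Tcn2, which encodes a cobalamin carrier, at 0.97, followed by Nap1l1 (0.90) and Cdc16 (0.88). For Hp they were Mgp (0.93), Bola2 (0.90), Timeless (0.88), of which Mgp, the matrix Gla protein, had 0.98 within 3T3-L1 and 0.39 within C3H/10T1/2. For Orm1 they were Tbl1x (0.91), Ccdc80 (0.88), Septin6 (0.88), for Cp Chil1 (0.91), Got2 (0.87), Dnm1 (0.86), and for Serpina3n Anxa8 (0.90), Serping1 (0.87), Mmp3 (0.87). The closest to Saa3 were Cpd (0.88), Bcap29 (0.88), Rnf145 (0.86) and to Ptx3 Ccnd1 (0.83), Sfrp2 (0.80), Adamts5 (0.79). Between members, over 12 groups a line, the r of Saa3 and Serpina3n was 0.74 for 3T3-L1 and 0.95 for C3H/10T1/2, and that of Serpina3n and Ptx3 -0.65 and 0.90. Over all 21 pairs of members, r in 3T3-L1 ran from -0.65 (Serpina3n and Ptx3) to 0.86 (Hp and Cp). In C3H/10T1/2 it ran from -0.44 (Hp and Cp) to 0.98 (Hp and Serpina3n).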

How the data were processed

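RNA of adipocytes differentiated from either line was hybridized to Affymetrix mouse arrays, and the authors deposited MAS5 signal intensities per probe set, on a linear scale captured with the array maker's operating software. Depth does not apply to arrays, and their number limits the precision. The medians of 3T3-L1 arrays were 50.2 to 64.2, and those of C3H/10T1/2 arrays 38.2 to 46.9. Control probe sets (64) were set aside, and 132 signals of 0 were set to 0.1 before log2. By the array annotation 20380 probe sets had a single gene, 691 more than 1, and 1555 had no listed gene.

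Each line was fitted over all its arrays with limma 3.58.1 in R 4.3.3 (lmFit and eBayes with an intensity trend, 1 mean per group), and comparisons between the lines over all 71 arrays. Adjusted p-values are Benjamini-Hochberg values across every probe set tested in a comparison, and the threshold was 0.05. Levels are not compared between probe sets. The fit was tested on simulated data. Tables and figures used Python 3.11.15, numpy 2.4.6, pandas 2.3.3 and matplotlib 3.10.9. The methods' test was the study's analysis of variance on log signals, at an unadjusted p under 0.05 with a fold of at least 1.2.

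Members, gene lists, markers and motifs were chosen with earlier results of these data known. The text names all members, up to 5 called genes a list and direction with the largest changes at 24 or 48 hrs, and the 3 most similar genes to each member among 14589 probe sets. The probe set with the highest mean signal leads where a gene has several.

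Replicate numbers come from the labels. Same-numbered DMSO and RSG arrays deviated together from their group means in C3H/10T1/2 (r of 0.13 to 0.31 over 18 pairs, all above 0.1) and less evenly in 3T3-L1 (r of 0.02 to 0.26, 14 of 17 above 0.1), so that blocked values stand mainly beside C3H/10T1/2 results. For 3T3-L1 they are given where the block added a call. Alternatives were no trend, no filter, a floor at the presence level, quantile normalization, only the groups compared, the replicate block, the methods' test, and leaving out each array of a comparison.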

Additional observations from a re-analysis of the deposited data

Results flagged for a closer look

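The effect of RSG on Hp differed between the lines at 48 hrs by the test of the difference itself. RSG minus DMSO on the log2 scale was -2.53 for 3T3-L1 but -0.18 for C3H/10T1/2, a difference of -2.35 ± 0.45 (SE), with an adjusted p of 0.0013 by limma. All 3 RSG arrays of 3T3-L1 lay below all 3 DMSO arrays, while the groups overlapped in C3H/10T1/2.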

How the results depend on the processing

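Of the 28 changes of single member probe sets that were called, none reversed under the alternatives run. All 28 were called again with the replicate block and with a floor at the presence level, 27 without a filter and after quantile normalization, 26 without the trend, and 24 when only the groups compared were fitted. Counts of called member probe sets moved, among others, as follows, and are not set beside the shares over all of each alternative. With RSG in 3T3-L1 at 24 hrs the 5 calls became 3 without the trend or with the methods' test adjusted, and 3 to 6 when single arrays were left out. The replicate block added Ptx3 to the 5, and the methods' test added Ptx3 and Cp on 1417496_at. With RSG in 3T3-L1 at 48 hrs the block added Saa3 and Lcn2, and the methods' test added Lcn2. In DMSO in 3T3-L1, the count of 0 became 1 at 4 hrs with the replicate block or the methods' test, and 1 at 7 hrs with the methods' test. At 24 hrs it was 0 to 1 when single arrays were left out. At 48 hrs the 3 calls became 1 with only the groups compared and 7 with the replicate block or the methods' test. With RSG in C3H/10T1/2 at 24 hrs the 2 calls became 4 with only the groups compared, 6 with the replicate block or the methods' test, and 2 to 4 when single arrays were left out. At 48 hrs the 1 call became 3 with the replicate block or the methods' test. In DMSO in C3H/10T1/2 at 7 hrs the count of 0 became 2 with the replicate block or the methods' test, and 0 to 2 when single arrays were left out. For the difference in RSG effect at 48 hrs the 1 call became 2 with only the groups compared or the replicate block. The cause was not tested.

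In 3T3-L1, where the replicate numbers paired the arrays less evenly, the block also called Ptx3 at 24 hrs (adjusted p = 0.022) and Saa3 and Lcn2 at 48 hrs (0.021 and 0.011) with RSG. In DMSO against 1 hr it also called Ptx3 at 4 hrs (0.037, lower) and Orm1 at 48 hrs (0.0087, higher). Cp was called lower in DMSO at 48 hrs on 1417495_x_at (0.031), 1417496_at (0.034) and 1448734_at (0.039). Across the lines the block called Serpina3n in the difference at 48 hrs (0.021) and Saa3 and Hp in the level at 1 hr (0.00032 and 0.030).

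Chosen after seeing the data were fits of only the groups compared with the replicate block, which called 3 member probe sets with RSG at 7 hrs, 8 at 24 hrs (5 genes) and 6 at 48 hrs (5 genes) in C3H/10T1/2, 1 in DMSO at 7 hrs, and 1 and 2 in the difference at 24 and 48 hrs. With RSG in 3T3-L1 these fits added Ptx3 (adjusted p = 0.0043) and Cp on 1417496_at (0.033) at 24 hrs. They added Saa3 there at 48 hrs (0.046), and all 3 changes were lower with RSG. Setting aside replicate 3 of C3H/10T1/2, also chosen after seeing the data, gave 2 calls in the difference at 48 hrs. The methods' test was not run for comparisons between the lines. With 3 arrays a group, differences that missed the threshold are bounded only by their intervals.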
